A study of Mus musculus with 10 samples.

Results

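The region around Ier3 and Flot1 on mouse chromosome 17 held the run of H3K27ac regions with the most members among the clusters of these mast cell maps. It was described over a window of 160 kb, chr17:35840000-36000000 in the mm9 build, in which every peak of the 5 deposited peak lists was counted. The window was chosen by its H3K27ac peaks, so the number, length, height and cover of its H3K27ac regions and their place among clusters are descriptions and not findings. The window held 269 of the 234627 peaks of the 5 lists, with 57, 63 and 47 peaks from H3K27ac replicates 1 to 3 and 53 and 49 from the pair of H3K4me1 lists. All 3 genes named with the window, Ier3, Flot1 and Tubb5, were found in the gene table at hand.

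The maps come from bone marrow-derived mast cells of C57BL/6 mice aged 6 to 8 weeks. Apart from 4 weeks of culture with 20 ng/ml interleukin-3, the cells were untreated before fixation. Over 99% of cells carried FcεRI and c-Kit, and all 10 samples were fixed with 1% formaldehyde. The 10 samples were 3 H3K27ac immunoprecipitates, 2 H3K4me1 immunoprecipitates and the input of each, and the question in the labels is where these histone marks lie in the genome of such cells. The caller used 16356587, 11413241 and 10457047 tags for the H3K27ac immunoprecipitates and 19513552 and 14685161 for H3K4me1, against inputs of 9433267 to 19265001 tags. Nothing in the labels ties the replicates to different cultures or mice, and the spread between lists may therefore be technical. Cell identity rests on the labels, since marker loci were not analysed here.

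H3K27ac, acetylation of lysine 27 of histone H3, is known from active promoters and enhancers, and H3K4me1, monomethylation of lysine 4, from enhancers both active and poised and from the flanks of active promoters. Ier3 is an immediate early gene, induced quickly by stress, growth factors and inflammatory signals, whose product modulates cell death and survival. Flot1 encodes flotillin-1, a scaffold protein of membrane microdomains, and Tubb5 a beta-tubulin of the microtubules. In the gene table, of the GRCm38.p6 assembly and used for gene order only, the genes run Gtf2h4, Ddr1, Ier3, Flot1, Tubb5, Mdc1 and Nrm, leaving out noncoding genes. Ddr1 encodes a collagen receptor kinase, Gtf2h4 a subunit of the general transcription factor TFIIH, Mdc1 an adaptor of the DNA damage response and Nrm the nuclear envelope protein nurim. Between Ddr1 and Ier3 the table lists 0 protein-coding genes and 3 long noncoding RNAs. When the region was chosen, Ier3 was placed near chr17:35958700 (mm9), and Ier3, Flot1 and Tubb5 all at the right end of the cluster. These placements were not checked against an mm9 annotation.

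The promoters of Ier3 and Tubb5 are shown because these genes are named at the right end of the cluster and their promoters differ in CpG content and in the motifs they hold. Each run holds 250 bases before and 50 after the gene's start in RefSeq, 5′ to 3′, from the plus strand at chr17:35821463-35821762 for Ier3 and the minus strand at chr17:35838252-35838551 for Tubb5, both in GRCm38.p6. Those coordinates are of another build than the peaks and cannot be set beside them. Capitals mark matches to the motifs searched.
Ier3: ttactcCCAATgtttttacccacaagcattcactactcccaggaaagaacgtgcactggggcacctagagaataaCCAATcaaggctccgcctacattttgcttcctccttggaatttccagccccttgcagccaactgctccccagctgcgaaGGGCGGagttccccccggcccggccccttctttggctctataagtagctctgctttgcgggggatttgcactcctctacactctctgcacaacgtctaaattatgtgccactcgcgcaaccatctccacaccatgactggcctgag
Tubb5: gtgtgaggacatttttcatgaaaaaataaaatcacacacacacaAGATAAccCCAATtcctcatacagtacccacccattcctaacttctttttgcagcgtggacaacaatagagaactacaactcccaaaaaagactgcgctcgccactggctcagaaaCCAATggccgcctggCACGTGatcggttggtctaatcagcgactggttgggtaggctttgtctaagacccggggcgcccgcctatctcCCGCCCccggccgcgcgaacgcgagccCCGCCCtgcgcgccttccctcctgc
For Flot1 the table had no entry.

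The Ier3 promoter had a GC box (GGGCGG) at -96 and CCAAT boxes (CCAAT) at -244 and -175, counted in bases from the start as 0. The Tubb5 promoter had CCAAT boxes at -198 and -90, an E-box (CACGTG) at -75 and a GATA site (AGATAA) at -206. It also had GC boxes at -2 and 25, on the strand opposite to the printed one. Both strands were searched, positions are those of the first base of the match in the printed strand, and no match overlapped another. Of all 32851 promoters of the table, 35.7% held GGGCGG, 37.4% CCAAT, 7.15% CACGTG and 11.2% AGATAA. Neither promoter matched TATAAA, held by 13.6% of promoters, the CRE motif TGACGTCA, held by 1.79%, the AP-1 motif TGACTCA, held by 5.2%, or an NF-kB motif read as GGGA, any base and TTTCC, held by 0.411%. GC content was 54% in the Ier3 promoter and 55% in the Tubb5 promoter, beside a median of 52.7% over the table. They held 10 CpG dinucleotides in Ier3 and 20 in Tubb5, beside a median of 7.

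Peaks of H3K27ac in the window were longer than those of the lists as a whole, while their median enrichment differed little from them. H3K27ac peaks covered 66.4, 63.4 and 58.1 kb of the window in replicates 1, 2 and 3, and H3K4me1 peaks covered 28.8 and 28.6 kb in replicates 1 and 2. Median H3K27ac peak lengths were 690, 638 and 686 bp in the window, against 493, 487 and 478 bp in the whole lists. The authors' fold enrichment of a peak over its input had medians of 8.45, 6.82 and 7.61 in the window, against 7.93, 6.80 and 7.54 in the whole H3K27ac lists. H3K4me1 peaks had median lengths of 433 and 434 bp in the window, against 356 and 437 bp in the whole lists. Their median fold was 6.66 and 6.34 in the window, against 6.50 and 6.13 in the whole lists.

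The window also held a few of the highest H3K27ac peaks of each list. Its best fold ranked 21 of 39837 peaks in replicate 1, 5 of 34035 in replicate 2 and 46 of 30599 in replicate 3. These ranks fell on 3 different places, at 35955938-35960074, 35934060-35934764 and 35947152-35950240. The best H3K4me1 peaks ranked 1011 of 70726 in replicate 1 and 1120 of 59430 in replicate 2. Of the window's H3K27ac peaks, 4, 8 and 5 were in the top 5% of their list by fold, which is 7.02%, 12.7% and 10.6% of them. Of its H3K4me1 peaks, 3 in each list were, or 5.66% and 6.12%. A rank here is the place of a fold among all peaks of its own list, and values of different lists were not merged.

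**Figure D1:**
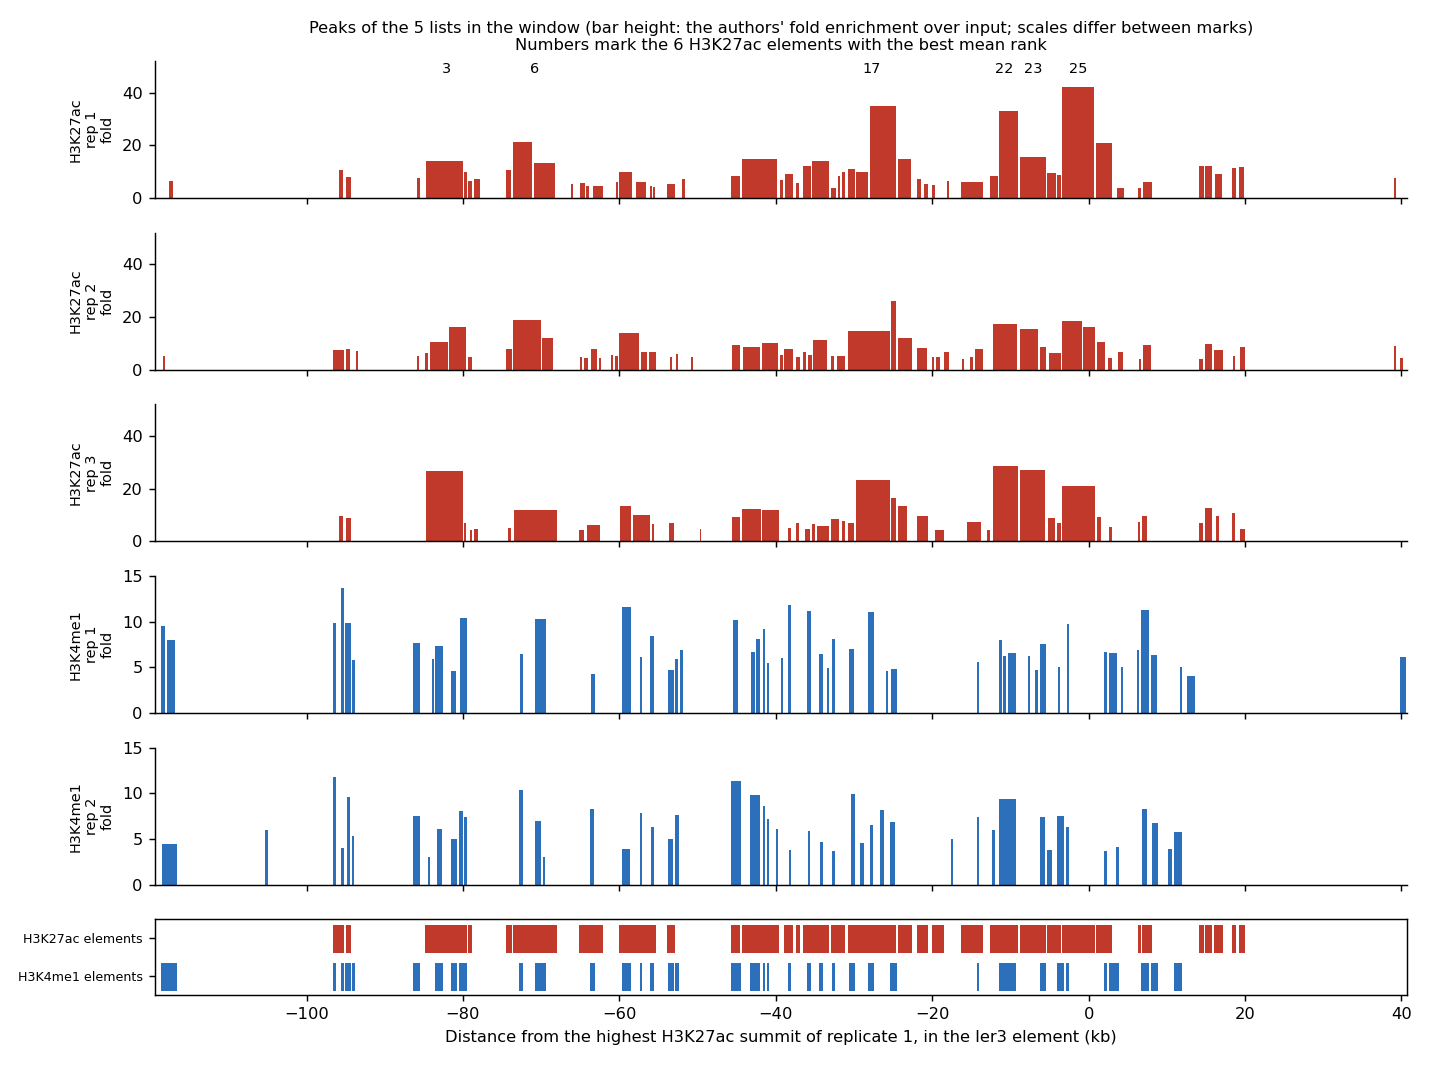
Peaks of the window in each of the 5 lists, drawn to scale along the distance in kb from the highest H3K27ac summit of replicate 1, with bar height giving the authors' fold enrichment over input on a scale shared within a mark. The lowest panel shows the 33 H3K27ac and 38 H3K4me1 elements, which are regions with a peak in every list of the mark, and numbers mark the 6 leading H3K27ac elements, most of which lie left of zero.

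Elements were read as joined regions that held a peak in every list of their mark. There were 33 H3K27ac elements and 38 H3K4me1 elements in the window. Of 51 joined H3K27ac regions, 33 had a peak in all 3 lists, 7 in 2 lists and 11 in 1 list, of which 3, 6 and 2 came from replicates 1, 2 and 3. Of 58 joined H3K4me1 regions, 38 had a peak in both lists, 11 in replicate 1 alone and 9 in replicate 2 alone. The H3K27ac elements are numbered from 1 to 33, left to right, and all of them belong to a single run from 35862776 to 35979305 when gaps of up to 12.5 kb are bridged. That cluster spanned 116.5 kb, of which the elements covered 69.9 kb, or 60.0%.

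The element that holds the position given for Ier3 was the H3K27ac element 25, chr17:35955938-35960117, 4180 bp long. Its highest fold was 42.1, 18.4 and 21.1 in replicates 1, 2 and 3, at ranks 21, 373 and 514, so it stood within the top 2% of each list and highest in replicate 1. At those summits 136, 61 and 69 tags were piled up, with 95% Poisson intervals for counting error only of 114 to 161, 46.7 to 78.4 and 53.7 to 87.3. Replicates 1 and 3 each called it as 1 peak, and replicate 2 called 2 peaks, 35955976-35958528 with a fold of 18.4 and 35958675-35960117 with a fold of 16.3. The 3 summits, at 35959331, 35957559 and 35958012, lay up to 1772 bp apart. The local background in the input at these summits was 1.14, 2.37 and 2.00 scaled tags, and the value in replicate 1 was the lowest that the caller could assign in that library. The fold is the scaled pileup over that background, with 1 added to each, and the scaled pileups here were 89.2, 61.0 and 62.2 tags.

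Directly right of it, after 215 bp without an H3K27ac peak of any list, followed element 26 at 35960333-35962311, with folds of 20.8, 10.6 and 9.28 and ranks of 2022, 5313 and 9744. H3K4me1 touched the Ier3 element at its left flank. The H3K4me1 elements at 35955282-35956207 and 35956407-35956814 covered 16.2% of it, and the second of these had folds of 9.75 and 6.34 in replicates 1 and 2. From there no H3K4me1 peak of either list was present for 4475 bp, up to 35961290, a stretch that holds the position given for Ier3 and the summits of all 3 H3K27ac lists.

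The 6 leading H3K27ac elements by mean rank were 17, 22, 25, 23, 6 and 3, and they were the same 6 when the pileup at the summit ranked them. An element takes the highest fold of its peaks in a list, so a long element has more peaks to draw on. Element 17, 35928549-35934764, was also the longest, with 6216 bp. Its folds were 34.7, 26.2 and 23.3 at ranks 121, 5 and 264, which put it in the top 1% of all 3 lists, as no other element of the window was. Its 3 summits lay up to 2460 bp apart, the widest spread among the elements. In replicate 2, rank 5 belonged to a short peak at its right end, 35934060-35934764, with a pileup of 74 scaled tags over a background of 1.87. The long peak beside it, 35928549-35933897, had a pileup of 75 over a background of 4.15 and a fold of 14.8. In replicate 2 these peaks thus had nearly equal pileups and differed in the input.

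Element 22, 35946783-35950247, had folds of 32.9, 17.5 and 28.5 at ranks 189, 535 and 46. Its summits lay within 143 bp of each other, with 149, 71 and 75 tags, or 97.8, 71.0 and 67.7 scaled tags. Its right neighbour, element 23 at 35950505-35953884, had folds of 15.7, 15.4 and 27.2 at ranks 4974, 1158 and 79. Its pileups were 77.4, 60.0 and 65.0 scaled tags, from 118, 60 and 72 tags, over backgrounds of 4.00, 2.96 and 1.43. By pileup they ranked 418, 281 and 95 in their lists.

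The other leading elements lay in the left part of the cluster. Element 6, 35885729-35891304 and 5576 bp long, had folds of 21.1, 18.7 and 12.0 at ranks 1928, 320 and 4985, and its summits were up to 2138 bp apart. Element 3, 35874540-35879828 and 5289 bp long, had folds of 14.2, 16.3 and 26.5 at ranks 6453, 826 and 103, with summits within 58 bp. Its pileups were 55.8, 58.0 and 55.9 scaled tags, from 85, 58 and 62 tags, over backgrounds of 3.00, 2.61 and 1.15. By pileup they ranked 2074, 357 and 359 in their lists. Elements 17, 6 and 3 were also the 3 longest of the window.

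**Figure D2:**
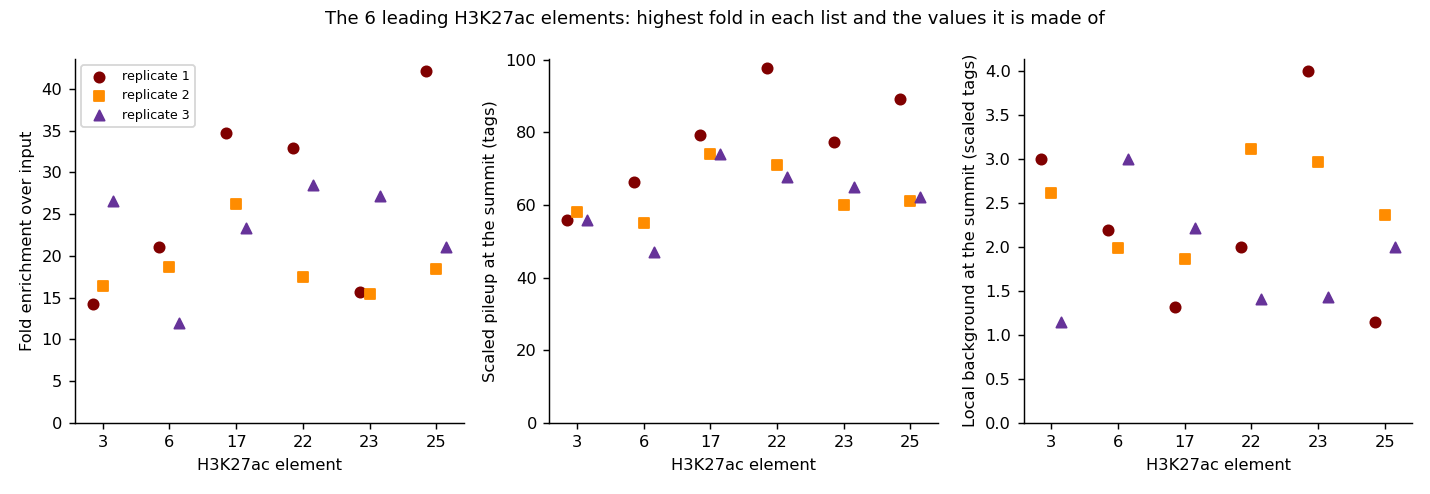
Highest fold enrichment (left), scaled pileup at that summit in tags (middle) and local input background there in scaled tags (right) of the 6 leading H3K27ac elements, with 1 point per replicate list. Element 3 has scaled pileups of 55.8, 58.0 and 55.9, each scaled by the libraries of its own list, and folds of 14.2, 16.3 and 26.5. Element 25 in replicate 1 combines a pileup of 89.2 with a background of 1.14.

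Across the 33 elements the 3 H3K27ac lists ordered the elements alike, more so by pileup than by fold. Spearman's rho between pairs of lists was 0.73, 0.62 and 0.69 for fold in the window, against 0.55, 0.53 and 0.53 over all 19670 elements, and 0.84, 0.84 and 0.93 for pileup, against 0.78, 0.79 and 0.81. These are descriptions over elements of the same libraries, which share depth and input. In the top 5% of their list were 4, 6 and 5 elements in replicates 1, 2 and 3, and elements 17, 22 and 25 were there in all 3. In the top 1% were 3, 2 and 4 elements. The median distance between the outermost summits of an element was 317 bp (27 to 2460), and 11 elements had all summits within 200 bp.

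**Figure D3:**
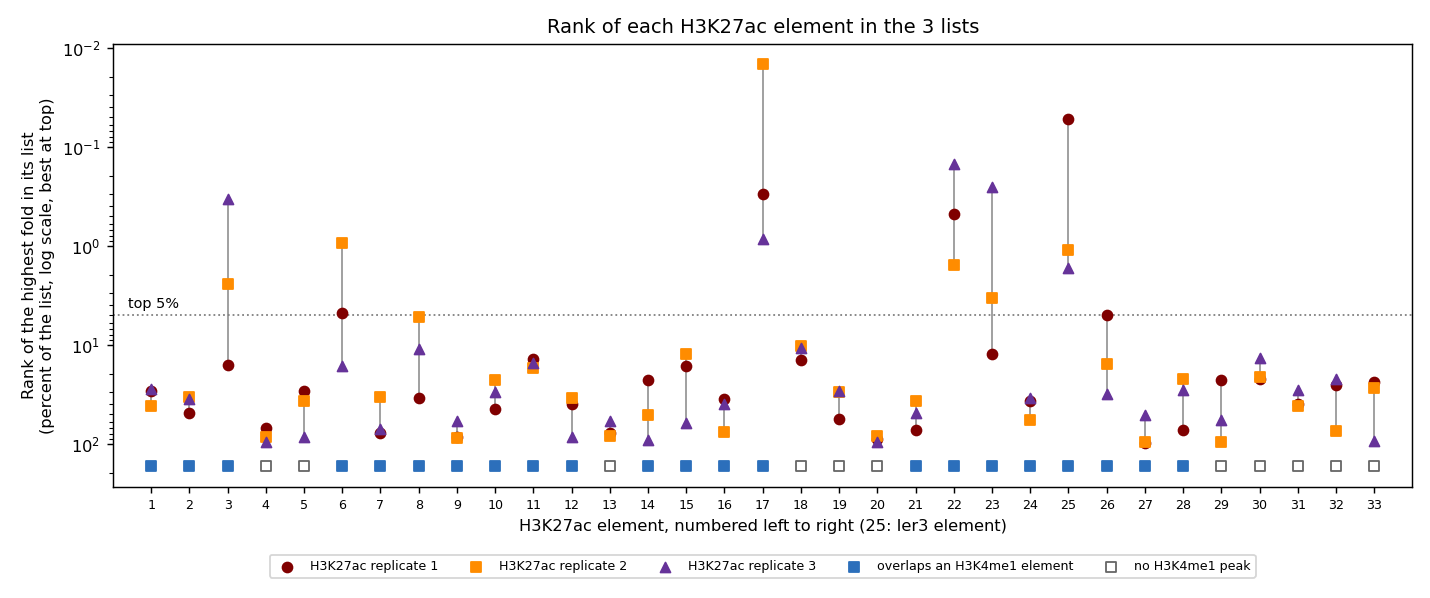
Rank of the highest fold of each of the 33 H3K27ac elements in its list, in percent of the list on a log scale with the best rank at the top, with 1 point per replicate and a line joining the 3 replicates. Squares below mark the 22 elements that overlap an H3K4me1 element (filled) and the 11 with no H3K4me1 peak (open), and elements 17, 22 and 25 lie above the 5% line in all 3 lists.

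The H3K4me1 elements were shorter, and their heights were less repeatable. They had a median length of 744.5 bp (286 to 2196), against 610 bp over all 42329 H3K4me1 elements, and covered 29.7 kb. Spearman's rho of fold between the 2 lists was -0.01 over the 38 elements, against 0.23 over all elements, and of pileup 0.64, against 0.65. Their summits nonetheless lay close together, with a median distance of 53.5 bp, and 29 of the 38 within 200 bp. No element was in the top 5% of both lists by fold, while 3 were in each. The element at 35863693-35864067 ranked in the top 1.43% of replicate 1 with a fold of 13.7 and in the top 90.8% of replicate 2 with a fold of 4.03. Its pileups were 43.1 and 27.2 scaled tags, over backgrounds of 2.22 and 6.00. Likewise the element at 35920867-35921325 had folds of 11.8 and 3.82. Both were picked here for their disagreement, after their values were seen.

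By mean rank the 4 leading H3K4me1 elements were 35913641-35914861, with folds of 10.18 and 11.3, 35862724-35863159, with 9.86 and 11.8, 35864265-35864968, with 9.82 and 9.57, and 35966075-35967107, with 11.3 and 8.29. Each overlapped an H3K27ac element, none of them one of the 6 leading ones. The first nearly filled H3K27ac element 10, 95.5% of which was covered by H3K4me1 and whose H3K27ac folds were 8.45, 9.33 and 9.45. The next 2 of these lay at the left end of the cluster, in H3K27ac elements 1 and 2.

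H3K4me1 lay in 22 of the 33 H3K27ac elements, 66.7% (95% Clopper-Pearson interval 48.2 to 82.0, for counting error only), where 40.5% of all H3K27ac elements overlapped an H3K4me1 element. The other 11, or 33.3%, had no H3K4me1 peak in either list, where 46.9% of all H3K27ac elements had none. Read from the other mark, 33 of the 38 H3K4me1 elements, 86.8% (71.9 to 95.6), overlapped an H3K27ac element, where 24.4% of all H3K4me1 elements did. Peaks of any H3K27ac list covered 48.0% of the window because the window was chosen on them, so the share of 86.8% is not independent of that choice. A further 3 H3K4me1 elements met an H3K27ac peak that was not in all lists, and 2 met none, at 35865128-35865502 with folds of 5.77 and 5.29 and at 35970224-35971234 with folds of 5.04 and 5.81. No test was run on these shares, since neighbouring elements of a window are not replicates.

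Length went with the overlap. H3K27ac elements of at least 2000 bp numbered 11 of 33 in the window, 33.3%, where 18.2% of all H3K27ac elements were that long. All 11 long elements overlapped H3K4me1, as did 11 of the 22 shorter ones. Over the whole series the shares were 72.4% of 3581 long elements and 33.4% of 16089 shorter ones. Elements of the window with H3K4me1 had a median length of 2072 bp (466 to 6216), and those without it had 714 bp (495 to 1874). The median over all elements of the window was 1468 bp, against 981.5 bp over all H3K27ac elements. The part that length plays in the share of 66.7% was not tested. Even the long elements were marked only in part, with H3K4me1 elements over 11.9% to 63.4% of their length. Over all 33 H3K27ac elements, long and short, H3K4me1 elements covered 32.5% of the bases, and 7 elements were covered by 50% or more. Conversely, 76.6% of the bases in H3K4me1 elements lay in H3K27ac elements.

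**Figure D4:**
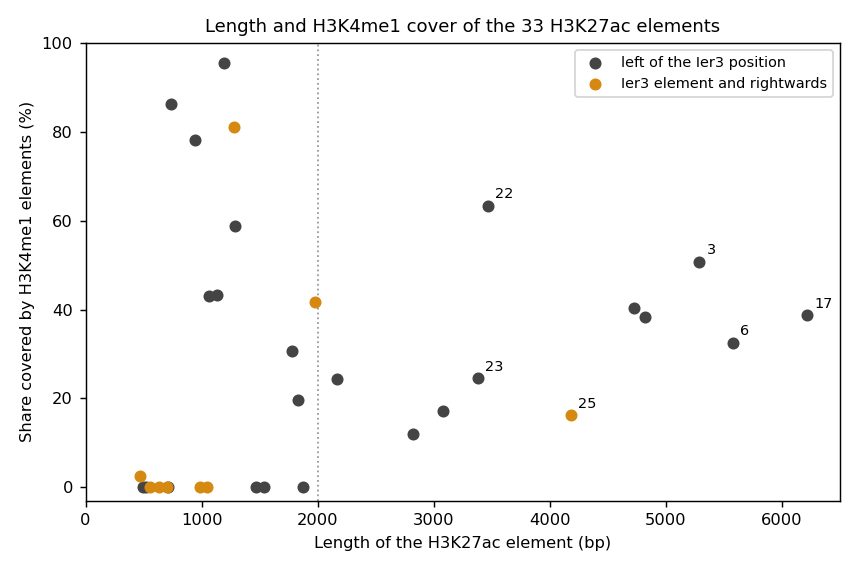
Length in bp of each of the 33 H3K27ac elements against the percent of it that H3K4me1 elements cover, coloured by side of the Ier3 position, with the 6 leading elements numbered and a dotted line at 2000 bp. All 11 elements longer than that have some H3K4me1, between 11.9% and 63.4% of their length, while the 11 elements at 0 are at most 1874 bp long.

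The highest H3K27ac elements without H3K4me1 were 18, 30 and 31. Element 18, 35934928-35936801, lay 163 bp right of element 17 and had folds of 14.9, 11.9 and 13.6, in the top 14.3%, 10.4% and 10.8% of the lists. Element 30, 35974181-35975169, had folds of 12.2, 9.59 and 12.7, and element 31, 35975422-35976471, had 9.05, 7.32 and 9.67. The lowest of the 11 by mean rank were elements 20 and 4, with folds of 4.97, 4.97 and 4.31 and of 6.38, 4.80 and 4.24, below those of most peaks of each list; these 2 were picked after their values were seen.

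The stretch left of the Ier3 element and the stretch from it to the right differed in element length and H3K4me1 overlap, but little in fold rank. The median over elements of the mean fold rank was the top 39.2% on the left and the top 41.1% on the right. On the left, 24 H3K27ac elements covered 58.1 kb of a span of 93.1 kb, with a median length of 1802 bp, and 18 of them overlapped H3K4me1. From the Ier3 element rightwards, 9 elements covered 11.8 kb of 23.4 kb, with a median length of 989 bp, and 4 of them overlapped H3K4me1. Over all H3K27ac elements 40.5% overlapped an H3K4me1 element, and 33.4% of those shorter than 2000 bp did. The part that length plays in the contrast between the stretches was not tested. Of the H3K4me1 elements, 33 ended more than 1000 bp left of the position given for Ier3, among them the 2 that overlapped the Ier3 element, and 5 lay further right. The last 5 H3K27ac elements, 29 to 33, formed a run of short elements of 559 to 1050 bp from 35973399 to 35979305. That run was delimited by its lack of an H3K4me1 peak of either list, so the lack is no finding. Over all H3K27ac elements, 46.9% had none. From the Ier3 element rightwards, elements 29 to 33 were the only ones without such a peak. They are neighbours and not independent cases. From 35972928 to 35999180, a distance of 26.3 kb, neither H3K4me1 list had a peak. Ier3, Flot1 and Tubb5 were all placed at the right end of the cluster when the region was chosen. Which elements belong to which gene was not read from an mm9 annotation.

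Short gaps between members were nearly as frequent in all stitched clusters as here. Of the 32 gaps between neighbouring elements, 14 were at most 300 bp, or 43.8%, where 39.0% of the 9982 gaps in all stitched clusters were. The median gap was 384 bp (24 to 9469), against 537 bp in all clusters. None of the 14 short gaps held a further H3K27ac peak of any list, but such a peak would have to fit inside the gap. The shortest H3K27ac peak of the window was 201 bp long, so most of these gaps could not hold one. An H3K4me1 peak of either list lay in or reached into 7 of the short gaps and 6 of the 18 longer ones. The same share was not computed for the gaps of all clusters. Measured in single lists, the short gaps ran from 145 to 501 bp. The gap between elements 22 and 23 was 257, 324 and 288 bp in replicates 1, 2 and 3, that between elements 25 and 26 was 258, 241 and 251 bp, and that between elements 30 and 31 was 300, 252 and 449 bp. None of these 3, which were picked after their values were seen, held an H3K4me1 peak. The longest gap, from 35865071 to 35874539, set elements 1 and 2 apart from the rest.

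Among the clusters with the longest H3K27ac cover, the Ier3 and Flot1 cluster ranked 3 by cover, with more and shorter members than the clusters beside it. Its 33 members had a mean length of 2120 bp and covered 69.9 kb, while the cluster at chr15:78074048-78166852 covered 73.3 kb with 18 members averaging 4073 bp and that at chr7:87513113-87621159 covered 71.5 kb with 19 members averaging 3764 bp. The next below, on chromosomes 4 and 13, covered 58.0 and 57.1 kb with 15 and 24 members. H3K4me1 overlapped 66.7% of the members here, against 77.8%, 84.2%, 80% and 79.2% in those clusters on chromosomes 15, 7, 4 and 13. In the other 77 clusters with at least 10 members, 60.7% of 949 elements overlapped H3K4me1, and the shares by cluster had a median of 63.6%, with 35 of them at or above that of the Ier3 and Flot1 cluster. The share of members with H3K4me1 thus lay near the middle of the large clusters.

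At the median, the input background in the window was not below that of the whole H3K27ac lists. The local background at summits had medians of 1.59, 2.11 and 1.61 scaled tags in the window for H3K27ac, against 1.49, 1.87 and 1.41 in the whole lists. The window's best peaks by fold, at ranks 21, 5 and 46, lay below the window's medians, over 1.14, 1.87 and 1.41 scaled tags. The part that the background plays in these ranks was not tested. The caller's lowest possible background stood behind 8.77%, 6.35% and 0% of the window's H3K27ac peaks, against 27.1%, 13.1% and 24.0% of the whole lists. At the edges, the nearest peaks outside the window were at 35837707-35838638, with a fold of 8.05, and at 36001907-36002177, with a fold of 2.67. The outermost peaks inside were both H3K4me1 peaks of replicate 1, at 35840666-35841236, with a fold of 9.53, and at 35999180-35999906, with a fold of 6.19. The nearest H3K27ac elements beyond the cluster lay 52.1 kb to its left and 23.2 kb to its right.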

How the data were processed

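Each immunoprecipitate was called on its own against its input with MACS2 on mm9. Per the file headers, the q-value limit was 0.001, and they name version 2.1.1.20160309 for H3K27ac and 2.0.10.20130306 for H3K4me1. The caller version thus changes with the mark and cannot be told apart from it. The build and MACS2 2.0.10.20130306 are also in the submitters' processing notes. No aligner was named in the sources at hand. Tags at a position were kept once, tags were 116 to 172 bp long, and the fragment length was 199 to 210 bp in H3K27ac lists and 203 or 255 bp in H3K4me1 lists, per the file headers.

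The deposited signal of a peak is the pileup of extended tags at its summit, scaled by the caller to the smaller of immunoprecipitate and input. The deposited fold enrichment divides that pileup by the local background of the input, with 1 tag added to each, and is used as the authors gave it. From these the background was computed back. Undoing the scale gave whole tags within 0.05 for 100% of peaks. The −log10 p-values and −log10 q-values are also as the authors deposited them. A missing peak means only that the limit was not passed.

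A joined region is a stretch of overlapping or touching peaks of a mark, and an element is such a region with a peak in all lists of its mark. Overlap between marks counts from 1 bp. No test was run, because the window was chosen on H3K27ac and its elements are not replicates of a condition. The members and the lists of motifs and neighbours were chosen with earlier results of these data known. Elements were named by rule: the 6 leading and 3 longest H3K27ac elements, the 4 leading H3K4me1 elements, the 3 leading elements of a mark without the other (for H3K4me1 2 existed), and elements within 2000 bp of the Ier3 position, with exceptions named where printed. Elements 1, 2 and 10, which leading H3K4me1 elements overlap, and elements 29, 32 and 33 of the right-end run also fall outside that rule and were named after their values were seen. Elements of either mark were split into a left and a right stretch by whether they ended more than 1000 bp left of the Ier3 position. No mm9 sequence or annotation was used. Alternatives were a −log10 q of at least 5 or 10, joining across 1000 bp, 2 of 3 H3K27ac lists, an overlap of 0.5 of the shorter region, stitching across 5000 or 25000 bp, pileup in place of fold, and each list left out. The software was pandas 2.3.3, NumPy 2.4.6, SciPy 1.17.1 and Matplotlib 3.10.9 under Python 3.11.15, and the code recovered 5 of 5 counts on simulated data.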

Additional observations from a re-analysis of the deposited data

How the results depend on the processing

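The counts of elements depend on how peaks are filtered and joined. With only peaks of a −log10 q of at least 10, H3K27ac elements numbered 20, H3K4me1 elements 21 and cluster members 20. With peaks joined across 1000 bp they numbered 11, 23 and 11. Stitching across 5000 bp left 19 members. Leaving out each list in turn gave 36 to 42 H3K27ac elements, 49 to 53 H3K4me1 elements, 36 to 41 members and an overlap with H3K4me1 of 59.5% to 69.4%, and 5 to 6 of the 6 leading elements recurred. Over all alternatives run, that overlap was 60% to 81.8% apart from the lists left out, and the other counts stayed within 1.5 times. No paired analysis was possible because no test between groups was run and replicate numbers of the 5 immunoprecipitates run on from mark to mark in their titles. Depth limits what a missing peak means, and the narrow peaks of the caller set where an element ends.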
